A study of Homo sapiens with 4 samples.

Results

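A set of 10 genes of the YAP/TEAD pathway was followed in U87 cells, an established human glioma line, after knockdown of PTPRN, a receptor-type tyrosine phosphatase family member of secretory vesicles. The set holds the co-activators YAP1 and WWTR1, the DNA-binding factor TEAD1, the kinase LATS2, the adaptor genes AMOTL2 and AJUBA, and the target genes CTGF, CYR61, ANKRD1 and CRIM1. Genes were taken by name from the 4 deposited gene tables, where CTGF and CYR61 stand under their newer symbols CCN2 and CCN1. All 10 were found, out of 27940 gene symbols, and all 10 were among the 11394 genes that passed the filter on low values. The knockdown group, shPTPRN3, has 2 libraries of cells infected with a lentivirus that carries a single hairpin. The control group, shNC, has 2 libraries of cells that received the virus with the empty vector, according to the labels. The description of the series calls the control virus H1-RFP (WT), so its exact vector is uncertain. Both groups were grown in the same serum-containing medium, and the labels give no time of harvest. The libraries of a group are called biological replicates, but separate cultures are not stated, so p-values measure the spread between libraries, which may be partly technical.

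YAP1 and the TAZ protein, encoded by WWTR1, are co-activators that bind no DNA of their own and reach it through TEAD factors. The Hippo kinases LATS1 and LATS2 phosphorylate both proteins, which keeps them out of the nucleus and marks them for destruction. Loss of contact between cells, stretching and a stiff matrix relieve that block, and the nuclear complex then drives genes such as CTGF, CYR61 and ANKRD1, which serve widely as its readout. Several targets feed back on the pathway, LATS2 and AMOTL2 among them. In glioma and other solid tumours YAP and TAZ are studied for their part in growth, invasion and mesenchymal traits. Much of this control acts on protein location and stability, which RNA levels do not measure. The gene named TAZ in the tables is tafazzin, a different gene, and was not used.

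The hairpin sequence given in the labels is shown first, because it defines the knockdown. It has 21 bases, printed in capitals as the labels give it, matched transcripts of PTPRN on chromosome 2 and of no other gene in GENCODE 29, and matched none of the 10 genes.
Hairpin target: GGAAGTCTGTATTCAGGATGG

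TEAD factors recognise a core that reads GGAATG, or CATTCC on the other strand. RefSeq promoters of build GRCh38.p14, each 300 bases from 250 before to 50 after a transcription start, were available for 7 of the 10 genes. Either form of the core was present in 6 of the 10 promoters of these genes (1 each of YAP1, LATS2, CTGF, ANKRD1, AMOTL2 and AJUBA), against 14% of the 35116 promoters in the table. WWTR1 had no match in its 2 promoters, and TEAD1, CYR61 and CRIM1 were not analysed here. The CTGF promoter held 3 matches, a number reached or passed by 45 promoters (0.128%). Its 250 bases before the transcription start are printed, because CTGF is the classical readout and the only gene of the set whose groups did not overlap. It lies on the minus strand at chr6:131951373-131951622, is read 5′ to 3′ on that strand, and has the GGAATG cores in capitals.
CTGF promoter: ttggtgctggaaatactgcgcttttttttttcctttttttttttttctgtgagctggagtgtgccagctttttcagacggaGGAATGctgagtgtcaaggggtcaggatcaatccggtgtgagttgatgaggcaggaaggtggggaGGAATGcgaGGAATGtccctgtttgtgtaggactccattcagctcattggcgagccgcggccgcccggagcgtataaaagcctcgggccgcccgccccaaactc

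The matches of the other genes are set out with 10 bases on each side and the core in capitals, each on its gene's own strand, so that their flanks can be compared. The ANKRD1 sites begin 220 and 128 bases before the start, the YAP1 site 162, the AMOTL2 site 69 and the AJUBA site 59, while the LATS2 site begins at base 10 of the transcript. The AMOTL2 and AJUBA sites are in the downstream one of each gene's 2 promoters. For ANKRD1 the RefSeq start lies inside the deposited locus (chr10:90912100-90921275), and so does its downstream site.
ANKRD1 upstream (chr10:90921292-90921317, minus strand): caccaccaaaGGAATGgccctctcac
ANKRD1 downstream (chr10:90921200-90921225, minus strand): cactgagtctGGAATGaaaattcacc
YAP1 (chr11:102110275-102110300, plus strand): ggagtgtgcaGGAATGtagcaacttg
LATS2 (chr13:21061562-21061587, minus strand): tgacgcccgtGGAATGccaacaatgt
AMOTL2 (chr3:134374501-134374526, minus strand): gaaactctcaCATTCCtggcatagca
AJUBA (chr14:22976886-22976911, minus strand): gaagttggctGGAATGaagccaaagc
A match describes letters in a window, not a site shown to be bound, and binding was not measured.

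Values are FPKM, fragments per kilobase of transcript and per unit of sequencing depth, as the authors deposited them from Cufflinks. The tables give no read counts; the interval widths of single-exon genes put the depth at about 28.4 and 13 M fragments in shPTPRN3 and 17.9 and 11.7 M in shNC. PTPRN itself stood at 5.22 and 3.42 FPKM in shPTPRN3 and at 28.6 and 19.3 FPKM in shNC, so that 18.1% of the control level was left after scaling. Its log2 fold change was -2.22 (SE 0.34; limma, adjusted p = 0.0594), and the adjusted p was 0.027 when genes listed at 0 in any library were left out. Of 7 glial and mesenchymal markers, VIM had 1986 and 1124 FPKM in shPTPRN3 and 2177 and 1654 FPKM in shNC, and CD44 had 103 and 89.4 FPKM in shPTPRN3 and 87.7 and 89.5 FPKM in shNC. NES had 1.37 and 0.917 FPKM in shPTPRN3 and 2.44 and 3.91 FPKM in shNC (log2 fold change -0.94; limma, adjusted p = 0.289). GFAP, which defines astrocytes, was listed at 0 in all 4 libraries and S100B, SOX2 and OLIG2 reached at most 0.918 FPKM. The 3 epithelial markers summed to 1.01 and 0.779 FPKM in shPTPRN3 and 1.33 and 0.518 FPKM in shNC, and the 2 endothelial markers to at most 0.764 FPKM in any library. The 3 blood markers summed to 43.8 and 11.2 FPKM in shPTPRN3 and 44.2 and 0.334 FPKM in shNC, nearly all of it CD74, and the 3 fibroblast markers to 2.53 and 2.58 FPKM in shPTPRN3 and 1.14 and 1.41 FPKM in shNC, mostly PDGFRB. The part of other cells in the results was not tested.

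None of the 10 genes passed the test, in either direction. Fold changes are limma estimates on log2(scaled FPKM + 1), and p-values were adjusted over all genes tested by the Benjamini-Hochberg method, at 0.05. The count was 0 of 10 both with all genes and without the genes listed at 0, and 0 also at an unadjusted p under 0.05. Over all genes tested, 0.421% were called in the full fit (0.079% higher and 0.342% lower in shPTPRN3), and 1.97% were called without genes listed at 0 (0.377% higher and 1.59% lower). An unadjusted p under 0.05 was reached by 13.5% in the full fit (5.66% higher and 7.79% lower) and by 14.6% without genes listed at 0 (6.41% higher and 8.22% lower). The log2 fold changes of the 10 genes ran from -0.26 to 0.53 with a median of 0.22, beside a median of -0.01 over all genes tested. On scaled FPKM, used for every statement on overlap, the groups overlapped for 9 of the 10, and the groups of 44.6% of all genes tested did not overlap. Leaving out 1 library turned the sign of the fitted fold change in 7 of the 10 genes. WWTR1 and CTGF kept theirs, and ANKRD1 was not tested without shPTPRN3 replicate 2, where its remaining shPTPRN3 value was below both shNC values. In RNA from bulk cultures, a change in the share of cells that express a gene and a change in the amount per cell cannot be told apart.

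**Figure D1:**
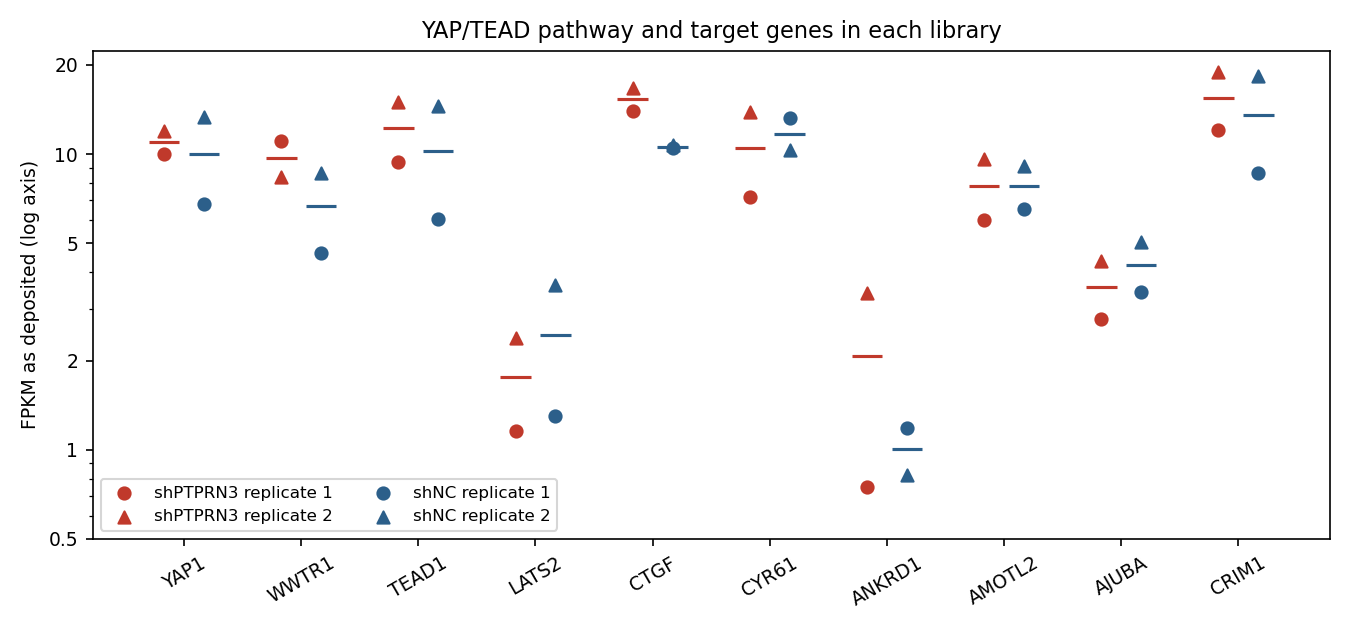
FPKM as deposited (log axis) of the 10 genes in each library, with shPTPRN3 in red left of shNC in blue, circles for replicate 1, triangles for replicate 2 and bars for the mean of the 2 libraries. CTGF is the only gene whose red points both lie above its blue points, while for 7 of the 10 genes replicate 2 is above replicate 1 in both groups.

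The co-activators are given first. YAP1, on chromosome 11 from 102110447 to 102233424 (hg38, plus strand), had 10.0 and 12.0 FPKM in shPTPRN3, against 6.80 and 13.3 FPKM in shNC. The 2 shPTPRN3 values lay inside the range of the shNC values. The means were 11.0 ± 1.42 FPKM in shPTPRN3 and 10.0 ± 4.58 FPKM in shNC (SD, n = 2), and the log2 fold change was 0.19 (95% interval -0.77 to 1.16; limma, adjusted p = 0.89). WWTR1, on chromosome 3 from 149517229 to 149724788 (minus strand), had 11.1 and 8.34 FPKM in shPTPRN3, against 4.64 and 8.66 FPKM in shNC. The shNC libraries were the lowest and the second highest of the 4, with replicate 1 of shNC well below the rest. The log2 fold change of 0.53 (95% interval -0.37 to 1.43) was the highest of the set and did not pass (limma, adjusted p = 0.585). Between the first replicates the log2 difference was 1.07, and between the second replicates it was -0.01. An antisense gene, WWTR1-AS1, lies within the WWTR1 locus and had at most 0.615 FPKM in any library. As a share of the summed FPKM of YAP1 and WWTR1, WWTR1 made up 52.5% and 41.0% in shPTPRN3 and 40.6% and 39.5% in shNC.

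TEAD1, which carries the co-activators to DNA, had 9.43 and 15 FPKM in shPTPRN3 and 6.03 and 14.5 FPKM in shNC. Replicate 2 was far above replicate 1 in both groups, and the groups overlapped. TEAD1, on chromosome 11 from 12674421 to 12944737 (plus strand), had a log2 fold change of 0.32 (95% interval -0.84 to 1.48; limma, adjusted p = 0.83). Its 3 paralogues were less abundant in 3 of the 4 libraries, the exception being TEAD4 in shNC replicate 1. TEAD3 had 5.62 and 5.26 FPKM in shPTPRN3 and 3.11 and 2.95 FPKM in shNC. TEAD4 had 5.86 and 4.23 FPKM in shPTPRN3 and 11.4 and 6.29 FPKM in shNC. Neither passed (log2 fold changes 0.69 and -0.66; limma, adjusted p = 0.376 and 0.462). TEAD2 had 2.5 and 1.49 FPKM in shPTPRN3 and 2.58 and 2.59 FPKM in shNC (log2 fold change -0.27; limma, adjusted p = 0.753). The groups of all 3 paralogues did not overlap, TEAD3 being higher and TEAD2 and TEAD4 lower in shPTPRN3, as was so for 44.6% of all genes tested in either direction. Of the summed FPKM of the 4 factors, TEAD1 held 40.3% and 57.7% in shPTPRN3 and 26.1% and 55.0% in shNC. TEAD3 held 24.0% and 20.3% in shPTPRN3 and 13.4% and 11.2% in shNC. TEAD4 held 25% and 16.3% in shPTPRN3 and 49.4% and 23.9% in shNC. TEAD2 held 10.7% and 5.73% in shPTPRN3 and 11.1% and 9.86% in shNC, so the shares of TEAD2 and TEAD4 overlapped. Such shares are free of the scaling between libraries, but transcript lengths differ (TEAD1 8477 bases, TEAD3 2983 bases), and they were not tested.

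LATS2, the kinase that restrains YAP and TAZ and is itself a target, was low. It had 1.16 and 2.38 FPKM in shPTPRN3 and 1.30 and 3.60 FPKM in shNC. The groups overlapped, with both second replicates above both first replicates. For LATS2, on chromosome 13 from 20973036 to 21061586 (minus strand), limma gave a log2 fold change of -0.26 (95% interval -1.32 to 0.81, adjusted p = 0.858). AMOTL2, an angiomotin-family scaffold that binds YAP and holds it at junctions, had 5.97 and 9.62 FPKM in shPTPRN3 and 6.51 and 9.13 FPKM in shNC. Its group means were nearly equal, at 7.79 ± 2.58 FPKM in shPTPRN3 and 7.82 ± 1.85 FPKM in shNC (SD, n = 2). The log2 fold change of -0.01 had a 95% interval of -0.92 to 0.90 (limma, adjusted p = 0.997), which is too wide to show that the levels were alike. AJUBA, a LIM-domain adaptor that binds and inhibits LATS kinases, had 2.76 and 4.36 FPKM in shPTPRN3 and 3.41 and 5.06 FPKM in shNC. Each shPTPRN3 library was below the shNC library of the same number, by 0.24 and 0.14 on the log2 scale, and the groups overlapped. AJUBA had a log2 fold change of -0.19 (95% interval -1.06 to 0.68; limma, adjusted p = 0.878). AMOTL2 lies on chromosome 3 from 134355345 to 134375417 and AJUBA on chromosome 14 from 22971177 to 22982551, both on the minus strand.

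Of the targets, CTGF encodes a secreted matricellular protein of the CCN family and has the 3 GGAATG matches printed above. It had 14.0 and 16.7 FPKM in shPTPRN3 and 10.5 and 10.7 FPKM in shNC, on chromosome 6 from 131948177 to 131951372 (minus strand). Both shPTPRN3 libraries were above both shNC libraries, as was the case for 21.5% of all genes tested. The means were 15.4 ± 1.94 FPKM in shPTPRN3 and 10.6 ± 0.159 FPKM in shNC (SD, n = 2). The log2 fold change was 0.51 (SE 0.32, 95% interval -0.25 to 1.27) and did not pass (limma, adjusted p = 0.524). An exact permutation test of 2 against 2 values gives p = 0.333 here, two-sided, which is the smallest p this design allows. Taken by replicate number, the log2 difference was 0.37 for number 1 and 0.65 for number 2.

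CYR61, the other CCN member of the set, had 7.16 and 13.9 FPKM in shPTPRN3 and 13.2 and 10.3 FPKM in shNC. The 2 shPTPRN3 libraries were the lowest and the highest of the 4. CYR61, on chromosome 1 from 85580761 to 85583949 (plus strand), had a log2 fold change of -0.19 (95% interval -1.15 to 0.78; limma, adjusted p = 0.897). By replicate number the log2 differences had opposite signs, -0.81 for number 1 and 0.44 for number 2. CTGF and CYR61 have transcripts of similar length (2339 and 2290 bases), so their ratio within a library is free of scaling and little touched by length. The ratio of CTGF to CYR61 was 1.96 and 1.21 in shPTPRN3 and 0.794 and 1.04 in shNC. Each of the shPTPRN3 ratios was above both shNC ratios, a comparison chosen after the values were seen and given without a test.

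ANKRD1, a nuclear ankyrin-repeat protein of muscle and stressed cells, was the least abundant gene of the set. It had 0.747 and 3.39 FPKM in shPTPRN3 and 1.19 and 0.824 FPKM in shNC. One library stood apart, shPTPRN3 replicate 2, and the remaining shPTPRN3 library was the lowest of the 4. The log2 fold change of 0.49 (95% interval -0.64 to 1.63; limma, adjusted p = 0.714) rests on that library. Without it, ANKRD1 was under the mean of 1 FPKM needed for testing, and the log2 difference between the libraries numbered 1 was -0.33. The gene lies on chromosome 10 from 90912100 to 90921275 (minus strand). CRIM1, a membrane protein that binds bone morphogenetic proteins, had 12.1 and 19.0 FPKM in shPTPRN3 and 8.63 and 18.4 FPKM in shNC. The groups overlapped, with the highest values in both second replicates. CRIM1, on chromosome 2 from 36355778 to 36551135 (plus strand), had a log2 fold change of 0.26 (95% interval -0.85 to 1.36; limma, adjusted p = 0.867).

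**Figure D2:**
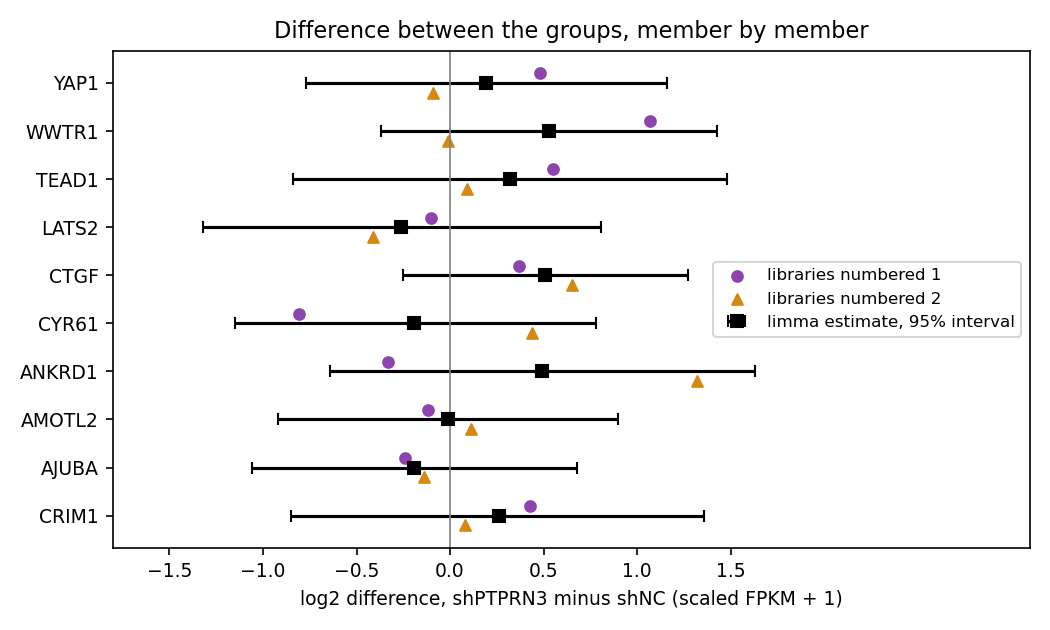
Log2 difference of shPTPRN3 minus shNC for each gene on scaled FPKM + 1: black squares and bars are limma's estimate and its 95% interval, purple circles the difference between the libraries numbered 1 and orange triangles that between those numbered 2. All 10 intervals include 0, and for YAP1, WWTR1, CYR61, ANKRD1 and AMOTL2 the circle and the triangle lie on opposite sides of 0.

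Ranked by the mean FPKM of the 4 libraries, which is a value per length, the order was CRIM1, CTGF, TEAD1, CYR61, YAP1, WWTR1, AMOTL2, AJUBA, LATS2 and ANKRD1. The means ran from 14.5 FPKM for CRIM1 to 1.54 FPKM for ANKRD1. Neighbours in this order had ranges that overlapped, except AMOTL2 (5.97 to 9.62 FPKM) above AJUBA (2.76 to 5.06 FPKM). Among all genes tested, ANKRD1 in shPTPRN3 replicate 1 stood at percentile 1.8, and CRIM1 in shPTPRN3 replicate 2 at percentile 75.7.

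The spread between replicates exceeded the difference between groups for most of the set. For 9 of the 10 genes the log2 difference between the replicates of at least 1 group exceeded the size of the log2 fold change. CTGF was the exception, and no share over all genes tested was computed for this count. Replicate 2 was above replicate 1 in 9 of 10 genes in shPTPRN3 and in 8 of 10 in shNC, with median log2 differences of 0.75 and 0.69. Over all genes tested the medians were -0.02 and 0.00. For 7 of the 10 genes replicate 2 was above replicate 1 in both groups, against 34.1% of all genes tested. TEAD1 differed by 0.76 in shPTPRN3 and 1.22 in shNC, CRIM1 by 0.75 and 1.09, and LATS2 by 0.75 and 1.06, all as replicate 2 minus replicate 1 on the log2 scale. The deposited intervals describe uncertainty within a library. Those of the replicates did not overlap for 10 of 10 genes in shPTPRN3 and for 8 of 10 in shNC. The share over all genes tested was not computed for this count. These intervals had a median half-width between 6.89% and 10.3% of the value, and between 24.3% and 39.2% for ANKRD1.

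Transcript length moved with this spread. Across the 11200 tested genes with a GENCODE 29 transcript, the log2 difference of replicate 2 minus replicate 1 had a Spearman correlation with the longest transcript's length of 0.385 in shPTPRN3 and 0.642 in shNC. These are correlations across genes, which share their libraries and are not independent. For the 4805 genes with transcripts of at least 4000 bases the median difference was 0.18 in shPTPRN3 and 0.38 in shNC, and for the 452 genes under 1000 bases it was -0.55 and -0.92. Of the 10 genes, 7 have transcripts of at least 4000 bases, from AJUBA (4262 bases) to TEAD1 (8477 bases), and none is shorter than 1000. The shorter genes, CTGF, CYR61 and ANKRD1 (2339, 2290 and 1979 bases), differed between replicates by 0.39, 1.01 and 1.43 in shPTPRN3 and by 0.11, -0.24 and -0.22 in shNC. In shPTPRN3 the differences of ANKRD1 and CYR61 were the largest of the 10, and in shNC those of the shorter genes were the lowest. With trends in length and GC content removed, the log2 fold changes of the 10 genes ran from -0.30 to 0.63 and none passed. The part of length in the spread was not tested further.

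**Figure D3:**
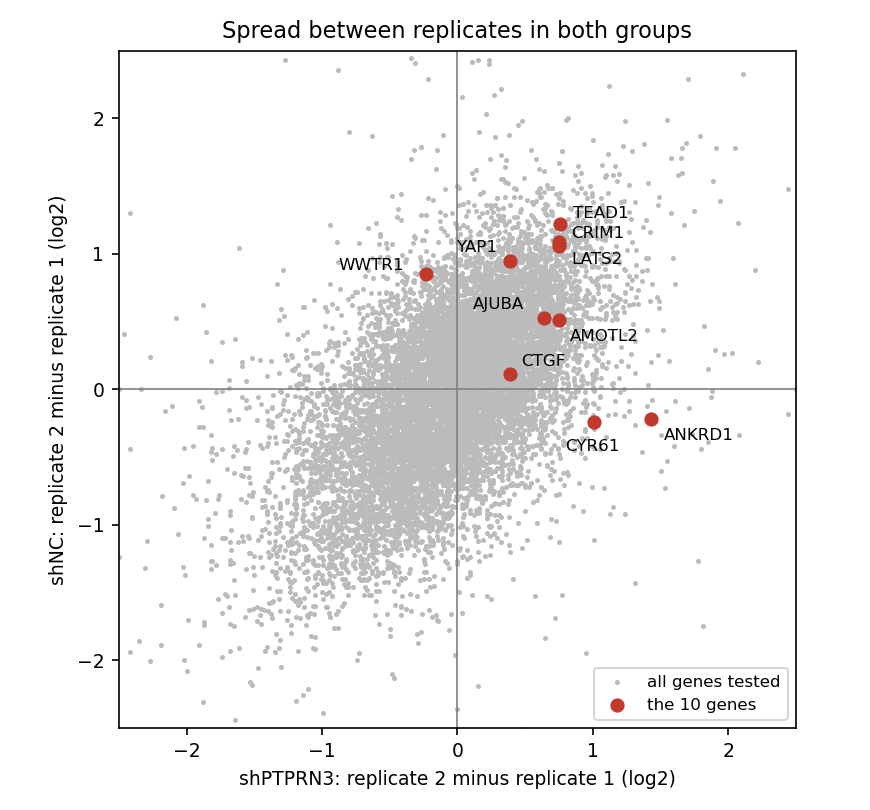
Log2 difference of replicate 2 minus replicate 1 within shPTPRN3 (horizontal axis) and within shNC (vertical axis) for all genes tested (grey) and the 10 genes (red). 7 of the 10 lie above 0 on both axes, as do 34.1% of all genes, and 154 genes lie beyond the axes at 2.5.

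Other genes of the pathway came from lists chosen with earlier results of these data known. Of 22 Hippo kinases, scaffolds and adaptors, 3 of them members of the set above, 19 were tested and none passed in either direction, with all genes or without those listed at 0 (limma). Their median log2 fold change was -0.11. At an unadjusted p under 0.05, MOB1A and LIMD1 were lower in shPTPRN3 and no gene was higher in the full fit. Of the 7 genes of the core kinase module, STK3, STK4, SAV1 and MOB1A had both shPTPRN3 libraries below both shNC libraries, LATS1 had both above, and LATS2 and MOB1B overlapped. Over all genes tested, 23.1% were below and 21.5% above in this way. These 7 genes were not one of the lists set beforehand. Of the 19 tested genes of the whole list, 5 were below and 4 above. STK4, the MST1 kinase that activates LATS, had 4.72 and 6.62 FPKM in shPTPRN3 and 8.49 and 14.5 FPKM in shNC (log2 fold change -0.86; limma, adjusted p = 0.407). STK3, the MST2 kinase, had 2.88 and 2.21 FPKM in shPTPRN3 and 3.67 and 5.20 FPKM in shNC (-0.60). MOB1A, the LATS cofactor, had 13.7 and 8.33 FPKM in shPTPRN3 and 19.0 and 21.2 FPKM in shNC (-0.83; limma, adjusted p = 0.354). SAV1, the MST scaffold, had 2.45 and 2.77 FPKM in shPTPRN3 and 3.08 and 4.52 FPKM in shNC (-0.39).

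LATS1, the other LATS kinase, had 4.45 and 3.69 FPKM in shPTPRN3 and 1.55 and 3.45 FPKM in shNC (0.59; limma, adjusted p = 0.524). MAP4K4, a kinase that can act on LATS beside the MST kinases, had 26.9 and 51.6 FPKM in shPTPRN3 and 11.2 and 23.8 FPKM in shNC, the highest log2 fold change of the list at 1.15 (limma, adjusted p = 0.402). LIMD1, a relative of AJUBA, had 1.26 and 1.6 FPKM in shPTPRN3 and 2.66 and 4.27 FPKM in shNC (-0.85; limma, adjusted p = 0.343). TAOK2, an upstream kinase, had 16.6 and 24.0 FPKM in shPTPRN3 and 12.6 and 15 FPKM in shNC (0.53), and NF2, the merlin tumour suppressor, 20.1 and 24.3 FPKM in shPTPRN3 and 16.8 and 17.1 FPKM in shNC (0.38). In all, 4 genes of the list had both shPTPRN3 libraries above shNC and 5 had both below, with 10 overlapping, beside 21.5% above and 23.1% below over all genes tested. PTPN14, a phosphatase that binds YAP, had 10.7 and 15.5 FPKM in shPTPRN3 and 3.81 and 10.8 FPKM in shNC, which overlap (0.90). MOB1B, WWC2, TAOK1, TAOK3, FRMD6 and AMOTL1 had log2 fold changes between -0.32 and 0.47. WWC1, AMOT and WTIP were below 0.2 FPKM in all 4 libraries and were not tested.

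Of 10 TEAD factors and co-regulators, 3 of them in the set above, 8 were tested and none passed (limma), with a median log2 fold change of 0.26. Among the vestigial-like proteins, which bind TEAD in place of YAP, VGLL4 was the most abundant. It had 19.6 and 28.9 FPKM in shPTPRN3 and 12.0 and 15.6 FPKM in shNC, with no overlap, and did not pass (log2 fold change 0.77; limma, adjusted p = 0.431). VGLL3 had 1.79 and 2.27 FPKM in shPTPRN3 and 0.874 and 2.92 FPKM in shNC (0.16), VGLL1 was listed at 0 throughout, and VGLL2 did not pass the filter, with 2.35 and 0.353 FPKM in shPTPRN3 and 0.283 and 0.0599 FPKM in shNC. In the CCN family, 4 of 6 genes were tested and none passed (limma), with a median log2 fold change of -0.51. NOV, listed as CCN3, was the most abundant. It had 27.6 and 23.1 FPKM in shPTPRN3 and 45.6 and 46.6 FPKM in shNC (-0.83; limma, adjusted p = 0.328). Of the 4, it alone reached an unadjusted p under 0.05 (limma). WISP2, listed as CCN5, had 4.02 and 1.06 FPKM in shPTPRN3 and 6.71 and 3.90 FPKM in shNC (-0.94; limma, adjusted p = 0.431). For CTGF, NOV and WISP2 the groups did not overlap, CTGF being higher and the other two lower in shPTPRN3, and 44.6% of all genes tested did not overlap. WISP1 was below 1 FPKM and WISP3 was listed at 0 in all 4 libraries.

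A compact list of 22 genes used elsewhere as YAP/TAZ targets, 6 of them in the set above, had 20 tested members and a median log2 fold change of 0.17. None passed in the full fit, and 2 (AXL and CCDC80) were higher at an unadjusted p under 0.05 (limma). CCDC80, a secreted matrix-associated protein, had 30.4 and 48.0 FPKM in shPTPRN3 and 8.25 and 10.5 FPKM in shNC. Its log2 fold change was 1.94 (SE 0.39), with adjusted p = 0.0899 in the full fit and 0.0387 without genes listed at 0 (limma). That second call was lost without shPTPRN3 replicate 2 (log2 fold change 1.56, adjusted p = 0.194). AXL, a receptor tyrosine kinase, had 69.0 and 105 FPKM in shPTPRN3 and 32.4 and 46.2 FPKM in shNC (1.13; limma, adjusted p = 0.317). F3, tissue factor, was low, with 0.852 and 1.21 FPKM in shPTPRN3 and 1.44 and 1.52 FPKM in shNC (-0.28). Of the 20 genes, 4 had both shPTPRN3 libraries above shNC, 1 had both below and 15 overlapped, beside 21.5% above and 23.1% below over all genes tested.

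The cell-division genes of a longer list, reported to respond to YAP, were taken apart from the rest. This split was made with earlier results of these data known. Of 11 division genes, 10 were tested, and their median log2 fold change was -2.51. In all 10 both shPTPRN3 libraries were below both shNC libraries, as in 23.1% of all genes tested. In the full fit limma called 1 of them lower, SHCBP1, with 1.17 and 0.298 FPKM in shPTPRN3 and 8.29 and 9.17 FPKM in shNC (log2 fold change -2.54, adjusted p = 0.0465). Its call was lost without shNC replicate 1 (log2 fold change -2.63, limma, adjusted p = 0.106), shNC replicate 2 (-2.44, adjusted p = 0.202) or shPTPRN3 replicate 2 (-2.20, adjusted p = 0.0532), while the fold stayed about as large. Without genes listed at 0, limma called 8 lower: BIRC5, CDC20, CENPF, HMMR, SHCBP1, STMN1, TK1 and TOP2A. The number called changed in some fits without 1 library, both with all genes and without those listed at 0. CDC20, the activator of the anaphase-promoting complex, had 13.8 and 2.18 FPKM in shPTPRN3 and 94.2 and 47.6 FPKM in shNC (log2 fold change -3.31). BIRC5, survivin, had 7.48 and 0.932 FPKM in shPTPRN3 and 38.5 and 22.1 FPKM in shNC (-2.90). TK1, STMN1, TOP2A, HMMR and CENPF had log2 fold changes of -3.31, -2.86, -2.48, -2.45 and -2.40. None of the 10 genes of the set is a division gene of this list.

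The other 45 genes of the longer list, 5 of them in the set above, had 40 tested members and a median log2 fold change of 0.20. None passed in the full fit (limma). At an unadjusted p under 0.05, 5 were higher and 2 were lower, and without genes listed at 0 CCDC80 alone was called. PMP22, a peripheral myelin protein, had 76.8 and 52.5 FPKM in shPTPRN3 and 34.8 and 23.4 FPKM in shNC (1.14). DDAH1, an enzyme that degrades dimethylarginine, had 4.37 and 3.11 FPKM in shPTPRN3 and 0.896 and 1.41 FPKM in shNC (1.14). PHGDH, the first enzyme of serine synthesis, had 16.9 and 10.0 FPKM in shPTPRN3 and 52.2 and 34.8 FPKM in shNC (-1.62; limma, adjusted p = 0.117). AGFG2 had 7.43 and 9.74 FPKM in shPTPRN3 and 18.2 and 24.6 FPKM in shNC (-1.21; limma, adjusted p = 0.209). Both shPTPRN3 libraries were above shNC for 14 of the 40 genes and below for 5, beside 21.5% and 23.1% of all genes tested.

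**Figure D4:**
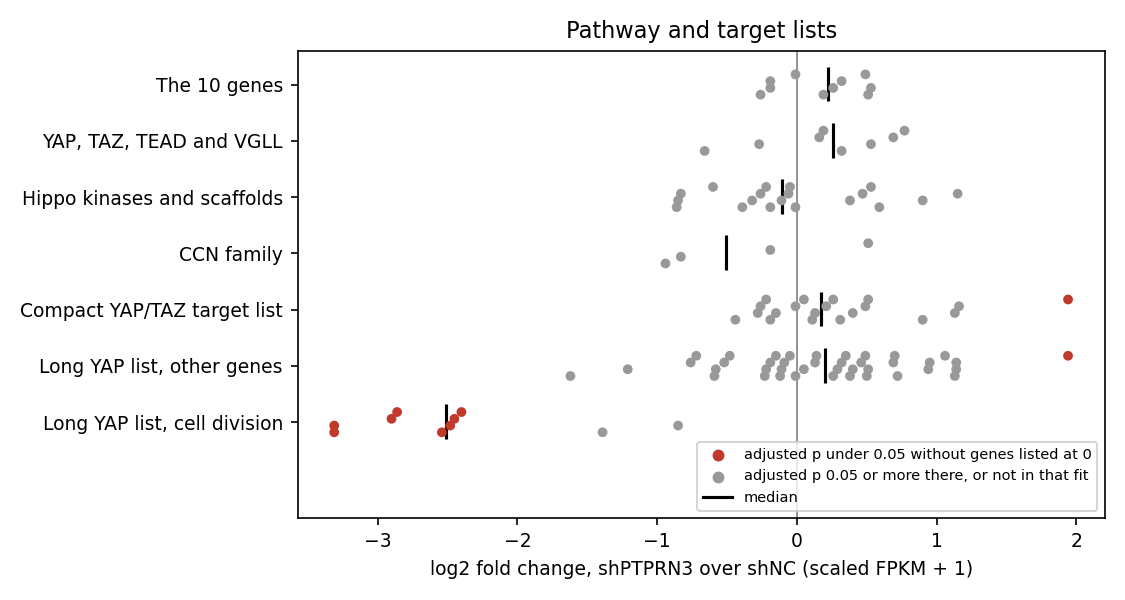
Log2 fold change of shPTPRN3 over shNC for the tested genes of each list, with the median as a black line and genes past an adjusted p of 0.05 without genes listed at 0 in red. The lists overlap in part. The 10 genes gather around 0, with no red point, and the red points are CCDC80 and 8 cell-division genes.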

How the data were processed

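RNA of 4 U87 libraries was sequenced after a stranded mRNA preparation, per the labels' protocols. FastQC 0.72, STAR 2.6.0b-1, Cufflinks 2.2.1.2 and build hg38 are named in the submitters' processing notes; for the annotation and the strand setting, nothing was found in the labels. The authors deposited an FPKM value per gene, its interval bounds and a quantification status, per the file headers. Where any library had a status that was not OK, the row was dropped (651 of 33646), and the remaining rows were summed per symbol. Median-ratio factors (0.943 to 1.05) scaled the libraries. PTPRN and each gene averaging 1 FPKM or more were tested two-sided with limma 3.58.1 (R 4.3.3, eBayes with a trend) on log2(scaled FPKM + 1); the pseudocount of 1 understates changes of low genes such as ANKRD1 and LATS2. The residual variance had 2 degrees of freedom, to which the prior contributed 4.94. The fit was tested on simulated data. The 10 genes and all lists were chosen with earlier results of these data known. List contents were written from general knowledge, and the CCN genes and LHFP were matched through newer symbols. The text names all 10 genes, PTPRN, every tested regulator and CCN gene, each called target gene, and per target list up to 3 genes in each direction with the largest changes and no overlap. One gene that this rule names is not reported here. Transcript lengths came from GENCODE 29 and promoters from RefSeq (GRCh38.p14). Positions count from 1. Alternatives covered scaling, pseudocount, filters, status, eBayes settings, a replicate block, length and GC trends, and leaving out each library. Python 3.11.15 with pandas 2.3.3 and matplotlib 3.10.9 was used for tables and plots.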

Additional observations from a re-analysis of the deposited data

How the results depend on the processing

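None of the 10 genes was called (limma) under any of the 21 alternatives in which it was tested. ANKRD1 was tested in 18 of them, AJUBA and LATS2 in 20 each and the other genes in all 21. Of 205 values, 26 had the opposite sign, 24 of them in fits without 1 library, and the cause was not tested. Filters, eBayes settings and the replicate block leave a gene's fold change as it was, so many of the 205 values could not differ. Each fit without 1 library was made with and without genes listed at 0. Both gave the same fold changes, so every reversal there is counted in both. Without shNC replicate 1 the log2 fold change was -0.28 for YAP1, -0.29 for TEAD1 and -0.29 for CRIM1. Without shPTPRN3 replicate 2 it was -0.05 for TEAD1 and -0.11 for CRIM1. Without shNC replicate 2 it was 0.27 for LATS2, 0.25 for AMOTL2 and 0.07 for AJUBA. Without shPTPRN3 replicate 1 it was 0.11 for LATS2, 0.32 for CYR61, 0.36 for AMOTL2 and 0.13 for AJUBA. AMOTL2 was also at 0.08 with TPM, which moved the median of all genes to 0.08, and at 0.01 with quantile normalization. WWTR1 (0.11 to 0.96), CTGF (0.33 to 0.70) and ANKRD1 (0.38 to 1.2, where tested) kept their sign. At the other end, the fits without 1 library reached 0.67 for YAP1, 0.93 for TEAD1, 0.80 for CRIM1, -0.78 for LATS2, -0.68 for CYR61, -0.37 for AMOTL2 and -0.50 for AJUBA.

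The wider lists depended more on the fit. Without genes listed at 0, 8 division genes were called, and CCDC80, which is in both the compact and the longer list. With length and GC trends removed, 6 division genes and again CCDC80 were called. Robust eBayes called 3 division genes. None was called with FPKM as deposited, TPM, pseudocounts of 0.1 or 0.5, no filter, a mean of at least 5 FPKM or eBayes without a trend. SHCBP1 averaged under 5 FPKM and so was not tested where a mean of at least 5 FPKM was required. Without a filter, no gene in or outside the lists was called. In fits without 1 library, a group's lone library is assumed to vary like the other group, so counts of calls there were not compared between lists. The log2 fold change of PTPRN ran from -2.45 to -1.98 in those fits (-2.40 and -2.02 without shPTPRN3 replicates 1 and 2), was -2.22 without genes listed at 0 (adjusted p = 0.027) and with robust eBayes (0.0363), and was -2.24 with the trends removed (0.0307; limma).

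Replicate numbers deviate together (correlation 0.519), but with 2 pairs and no stated shared batch they were not taken as pairs. A replicate block called 2168 of the 11394 genes tested, 956 higher and 1212 lower, against 48 (9 higher and 39 lower). Among the lists it called 2 of 19 Hippo genes higher and 3 lower, and 1 of 8 co-regulators higher. It called 2 of 4 CCN genes lower and 4 of 20 compact targets higher. Of the division genes it called 10 of 10 lower, and of the other long-list genes 7 of 40 higher and 3 lower. PTPRN was at -2.22 (adjusted p = 9.07e-07, limma) with the block. The total was 219 without genes listed at 0, 254 with the trends removed, 160 with robust eBayes, 31 with FPKM as deposited, 30 with TPM (10 higher and 20 lower), 23 with a pseudocount of 0.1, 26 without a trend and 8 when a mean of 5 FPKM was required. Without a filter it was 0, with 2163 genes at an unadjusted p under 0.05 (limma).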
